A study of Homo sapiens with 12 samples.

Results

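The kallikrein genes KLK2, KLK3, KLK4 and KLK15 were followed in C4-2 prostate cancer cells after knockdown of choline kinase alpha (CHKA), the enzyme that phosphorylates choline in the first step of phosphatidylcholine synthesis. They were chosen by name, as the kallikreins known for expression in the prostate, but with earlier results of these data known. They are 4 of the 54127 genes in the count files and 4 of the 14501 genes that had enough reads to be tested. C4-2 is a castration-resistant human line derived from LNCaP cells. All samples were this 1 line, grown in RPMI medium with serum, and reverse transfected with a 50 nM siRNA pool. In 6 samples the pool targeted CHKA (siCHKA), and in 6 samples it was nontargeting (siNT). The time between transfection and harvest was not given in the sources used here, and the labels speak of sorted cells without naming a gate. The labels do not say that the replicates were separate cultures. The study speaks of biological replicates but gives different numbers of them in different places, so the p-values below measure only the spread between these samples.

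Kallikreins are secreted serine proteases made as inactive precursors, and their genes lie side by side in a single cluster on chromosome 19. KLK3 encodes prostate-specific antigen, which cleaves semenogelins to liquefy semen and is the serum marker of prostate cancer. KLK2 is its closest relative and can activate its precursor, KLK15 can do the same, and KLK4 activates protease precursors and signals through protease-activated receptors. In luminal prostate cells androgens induce KLK2 and KLK3 through response elements in their promoters and upstream enhancers, and KLK4 is also described as androgen-induced.

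In GRCh38 (GENCODE release 44), the members lie in the order KLK15, KLK3, KLK2, KLK4. KLK15 (ENSG00000174562) occupies chr19:50825289-50837213 on the minus strand and KLK3 (ENSG00000142515) chr19:50854915-50860764 on the plus strand. KLK2 (ENSG00000167751) follows at chr19:50861568-50880567 on the plus strand, and KLK4 (ENSG00000167749) at chr19:50906351-50911395 on the minus strand. Distances are given between these gene spans, which take in all annotated transcripts. KLK3 and KLK2 are separated by 803 bases, KLK15 and KLK3 by 17701 bases, and KLK2 and KLK4 by 25783 bases. The RefSeq starts of KLK2 and KLK15 used for the promoter windows below lie well inside their spans. The 803 bases are thus not the distance from KLK3 to that KLK2 start. The reads themselves were aligned by the authors to GRCh37, and the coordinates serve only to place the genes.

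The promoter windows of the members are shown because androgen response elements of KLK3 and KLK2 are known to lie in theirs, and because they show how alike these neighbours are. Each window holds 250 bases before and 50 bases after a RefSeq transcript start on GRCh38.p14 and is written in the direction of the gene. Capitals mark TATAAA on either strand and, where at least 9 of its 12 fixed letters matched, the best match to the androgen response element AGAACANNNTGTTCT, which reads the same on both strands. The windows are KLK3 at chr19:50854665-50854964, KLK2 at chr19:50873189-50873488, KLK4 at chr19:50911346-50911645 and KLK15 at chr19:50833525-50833824.
KLK3: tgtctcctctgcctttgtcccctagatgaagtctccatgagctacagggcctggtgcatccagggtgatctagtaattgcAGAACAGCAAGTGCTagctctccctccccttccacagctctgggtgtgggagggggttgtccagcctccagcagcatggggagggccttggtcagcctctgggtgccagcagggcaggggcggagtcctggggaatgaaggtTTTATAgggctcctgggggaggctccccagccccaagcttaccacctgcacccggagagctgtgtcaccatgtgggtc
KLK2: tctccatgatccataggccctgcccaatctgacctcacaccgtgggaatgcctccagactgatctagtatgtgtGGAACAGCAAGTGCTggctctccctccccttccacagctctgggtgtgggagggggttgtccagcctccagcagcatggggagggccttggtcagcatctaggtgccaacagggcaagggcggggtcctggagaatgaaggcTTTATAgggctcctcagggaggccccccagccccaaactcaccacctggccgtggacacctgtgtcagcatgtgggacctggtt
KLK4: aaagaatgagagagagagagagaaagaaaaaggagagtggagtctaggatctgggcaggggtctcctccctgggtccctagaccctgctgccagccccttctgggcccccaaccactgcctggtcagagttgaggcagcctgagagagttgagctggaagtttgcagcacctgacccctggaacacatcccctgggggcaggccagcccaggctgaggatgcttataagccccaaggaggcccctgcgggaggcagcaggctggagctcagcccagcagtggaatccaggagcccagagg
KLK15: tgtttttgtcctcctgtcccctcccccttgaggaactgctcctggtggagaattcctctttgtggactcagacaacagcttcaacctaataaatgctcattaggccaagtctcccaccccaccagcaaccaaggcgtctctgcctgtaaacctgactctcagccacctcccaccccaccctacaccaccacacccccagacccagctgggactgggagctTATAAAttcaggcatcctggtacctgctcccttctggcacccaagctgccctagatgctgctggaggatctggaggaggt

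The KLK3 and KLK2 windows were near copies, with 236 of 269 aligned bases identical (87.7%). The KLK3 window held AGAACAGCAAGTGCT from position -170, matching 10 of the 12 letters. Of all 35116 promoter windows in the RefSeq table, 1.41% held a match as good. The KLK2 window held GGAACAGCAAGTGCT from position -176 with 9 matching letters, and 10.81% of windows held a match at least as good. Counted from the first base of the site, KLK3 to KLK2 is A1G. Both windows also held TATAAA, on the strand opposite to the one printed, at positions -28 (KLK3) and -34 (KLK2), and 11.5% of all windows held that word on either strand. The KLK4 window shown held no TATAAA and a best match of 7 letters, and 89.2% of windows did as well. A second KLK4 window, chr19:50910689-50910988, had a best match of 6. The KLK15 window shown held TATAAA on the printed strand at position -30 and a best match of 7, and its second window, chr19:50831474-50831773, held no TATAAA and also a best match of 7. These are matches of letters in short windows, which leave out the enhancers, and no binding was measured here.

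Reads on genes ranged from 10685184 to 24246055 per sample, and values are given as CPM, the reads on a gene scaled to the TMM-normalized library size. CHKA, the targeted gene, was at 1.91 to 4.67 CPM in siCHKA and 36.7 to 43.3 CPM in siNT, and fell by 3.88 on the log2 scale (SE 0.143, edgeR adjusted p = 5.89e-13). The siCHKA samples were not alike: replicates 1, 3 and 5 and replicates 2, 4 and 6 formed 2 sets. Over all tested genes, the median absolute difference in log2 CPM between siCHKA samples was 0.0809 to 0.115 within a set and 0.163 to 0.211 across the sets, against 0.1 to 0.19 between siNT samples and 0.313 to 0.398 between groups. The labels name no batch for the sets. The results for the members are given for all 6 siCHKA samples and for each set against all 6 siNT samples, and those for gene lists as counts. Of luminal markers, FOLH1, KRT8 and KRT18 were well expressed, while KRT19 was at 1.28 CPM in siCHKA and 1.58 CPM in siNT on average. Basal KRT5 and TP63, leukocyte PTPRC and CD3E and endothelial CDH5 had at most 4 counts in a sample, but basal KRT14 had up to 46, endothelial VWF up to 76, and stromal PDGFRB and COL1A1 up to 77 and 564.

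KLK2 and KLK3 were lower after CHKA knockdown, KLK4 was higher, and KLK15 passed the test in neither direction. In bulk RNA, fewer cells of a type and less RNA per cell cannot be told apart. In all, 2 of the 4 members were called lower and 1 higher, where 30.1% of all genes tested were called lower and 32.1% higher (62.2% in either direction, edgeR's quasi-likelihood test, adjusted p below 0.05). The median log2 fold change was -0.34 over the 4 members and 0.035 over all genes tested. How many of all genes tested had no overlap between the groups was not counted. A lack of overlap, and the smallest permutation p that follows from it, are therefore not read as particular to the members. Upper quartile normalization moved the median of all genes to 0.18 and the calls from 4371 lower and 4650 higher to 3052 lower and 6609 higher, and kept the directions and calls of KLK2, KLK3 and KLK4.

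**Figure D1:**
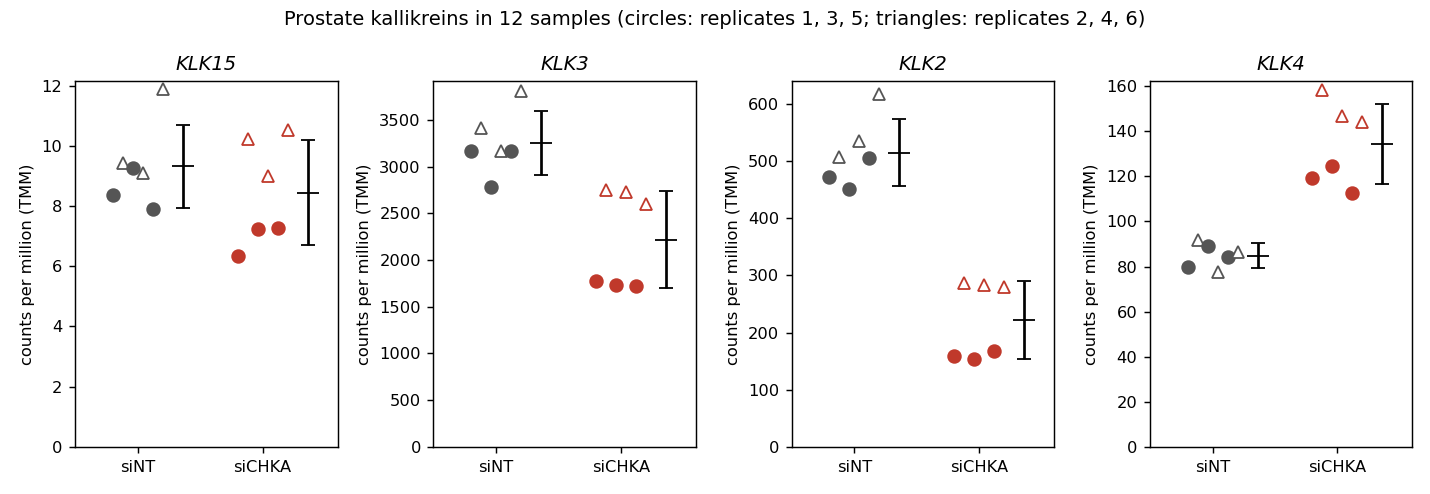
CPM (TMM-normalized, linear axes from 0) of the 4 kallikreins in each sample, siNT in grey and siCHKA in red, with filled circles for replicates 1, 3 and 5, open triangles for replicates 2, 4 and 6, and black bars for mean ± SD (n = 6). KLK3 and KLK2 lay below, and KLK4 above, every siNT sample in all 6 siCHKA samples, while the KLK15 groups overlapped. The share of all genes without such overlap was not counted.

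KLK3, the PSA gene, was the most abundant member. In siNT replicates 1 to 6 it was at 3172, 3413, 2782, 3164, 3172 and 3811 CPM, with a mean of 3252 ± 340.4 (SD, n = 6). In siCHKA replicates 1 to 6 it was at 1780.0, 2747, 1735, 2728, 1726 and 2603 CPM, with a mean of 2220.0 ± 520.8 (SD, n = 6). The groups did not overlap, but the highest siCHKA sample, replicate 2, lay close to the lowest siNT sample, replicate 3. KLK3 fell by 0.55 on the log2 scale (SE 0.126, edgeR adjusted p = 0.00109), to 68.3% of siNT. An exact two-sided permutation test of log2 CPM gave p = 0.00216, the smallest that 6 samples against 6 allow (0.00288 adjusted over the 4 members). Replicates 1, 3 and 5 alone gave a log2 fold change of -0.89 (edgeR adjusted p = 8.96e-08) and replicates 2, 4 and 6 alone -0.28 (adjusted p = 0.00684).

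KLK2, which encodes the protease most like PSA, fell more than KLK3. In siNT replicates 1 to 6 it was at 472.5, 507.3, 450.9, 535.8, 505.6 and 616.9 CPM (mean 514.8 ± 58.1, SD, n = 6). In siCHKA replicates 1 to 6 it was at 158.4, 287.4, 153.7, 282.7, 167.7 and 279.7 CPM (mean 221.6 ± 67.8, SD, n = 6). The highest siCHKA sample lay well below the lowest siNT sample. KLK2 fell by 1.21 on the log2 scale (SE 0.158, edgeR adjusted p = 3.87e-06), to 43.1% of siNT, and the exact permutation test again gave its smallest p, 0.00216. The log2 fold change was -1.68 with replicates 1, 3 and 5 alone and -0.87 with replicates 2, 4 and 6 alone.

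KLK4, on the minus strand beyond KLK2, moved the other way. In siNT replicates 1 to 6 it was at 80.0, 91.8, 89.0, 77.4, 84.3 and 86.2 CPM (mean 84.8 ± 5.43, SD, n = 6). In siCHKA replicates 1 to 6 it was at 119.5, 158.2, 124.6, 146.7, 112.8 and 143.9 CPM (mean 134.3 ± 17.85, SD, n = 6). Every siCHKA sample was above every siNT sample. KLK4 rose by 0.66 on the log2 scale (SE 0.0776, edgeR adjusted p = 1.13e-06), to 158% of siNT, with an exact permutation p of 0.00216. Both sets gave a rise, of 0.49 with replicates 1, 3 and 5 and 0.81 with replicates 2, 4 and 6.

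KLK15 was expressed at a low level, with 90 to 225 reads per sample, by far the fewest of the 4 members. It was at 8.37, 9.42, 9.25, 9.09, 7.89 and 11.9 CPM in siNT replicates 1 to 6, and at 6.35, 10.2, 7.25, 9.01, 7.26 and 10.54 CPM in siCHKA replicates 1 to 6. The groups overlapped, with means of 9.31 ± 1.38 in siNT and 8.44 ± 1.74 in siCHKA (SD, n = 6). The log2 fold change was -0.12 (SE 0.13, edgeR adjusted p = 0.422; exact permutation p = 0.303), and it was 0.023 with upper quartile normalization. The 2 sets went in different directions: -0.41 with replicates 1, 3 and 5 (adjusted p = 0.00803) and 0.10 with replicates 2, 4 and 6 (adjusted p = 0.449). With the siNT samples limited to the same replicate numbers both values were negative and neither was called, at -0.29 (edgeR adjusted p = 0.05001) and -0.01 (adjusted p = 0.95). Its call thus depended on which samples were used.

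**Figure D2:**
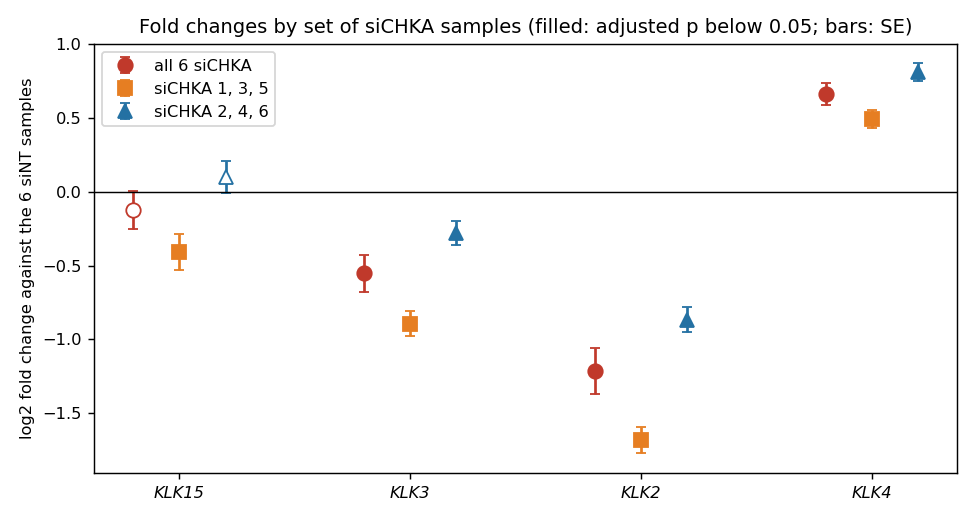
Log2 fold change (y axis) of each kallikrein against the 6 siNT samples, for all 6 siCHKA samples, replicates 1, 3 and 5, and replicates 2, 4 and 6; bars are SE and filled symbols have an edgeR adjusted p below 0.05. For each gene the value from replicates 1, 3 and 5 was the lowest of the 3, as for KLK2 with -1.68 against -0.87.

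All 4 members were higher in siCHKA replicates 2, 4 and 6 than in replicates 1, 3 and 5, with no overlap between the sets. The same held for 22.9% of all genes tested, and 24.6% were lower without overlap. The mean CPM of replicates 2, 4 and 6 over that of replicates 1, 3 and 5 was 1.77 for KLK2, 1.54 for KLK3, 1.43 for KLK15 and 1.26 for KLK4. These sets were defined from the data, so no test is given. Among siNT samples the same split by replicate number gave 1.16 for KLK2, 1.14 for KLK3, 1.19 for KLK15 and 1.01 for KLK4. Residual CHKA was 2.13 ± 0.216 CPM in siCHKA replicates 1, 3 and 5 and 3.37 ± 1.21 CPM in replicates 2, 4 and 6 (SD, n = 3), and its part in the difference was not tested.

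Whether neighbours responded differently was tested with the ratio of their counts within each sample, which does not depend on library size or normalization. All 6 pairs of members differed between the groups (exact two-sided permutation tests, p adjusted over the 6 pairs of 0.00259 for 5 pairs and 0.00433 for KLK15 over KLK3). The 6 ratios are not independent, because they share the same members. How many pairs of other genes differ, or separate the groups without overlap, was not counted. With 62.2% of all genes tested called in either direction, these results are therefore not read as particular to the members. For KLK4 over KLK2 and KLK4 over KLK3 the result was fixed by the single values. Those separated the groups without overlap in opposite directions, so these 2 tests add no support. For each 100 reads on KLK3 there were 14.9 to 16.9 reads on KLK2 in siNT samples and 8.86 to 10.8 in siCHKA samples. The log2 ratio of KLK2 over KLK3 fell by 0.69 in siCHKA (SE 0.0582), so that KLK2 fell relative to its closest paralog. The difference was -0.79 with replicates 1, 3 and 5 and -0.59 with replicates 2, 4 and 6.

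The widest separation was between KLK4 and KLK2. KLK4 reads were 14.0% to 19.7% of KLK2 reads in siNT and 51.4% to 81.1% in siCHKA, a difference in log2 ratio of 1.92 (SE 0.14), or 3.79-fold. The log2 ratio of KLK4 over KLK3 rose by 1.23 (SE 0.0977), from 2.26 to 3.2 KLK4 reads per 100 KLK3 reads in siNT to 5.38 to 7.19 in siCHKA. Neither pair overlapped between groups. The ratios moved in the same direction in both sets: KLK4 over KLK2 by 2.17 in replicates 1, 3 and 5 and by 1.67 in replicates 2, 4 and 6, against all siNT samples.

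KLK15 rose relative to KLK2 by 1.11 (SE 0.1) and relative to KLK3 by 0.42 (SE 0.0853), and fell relative to KLK4 by 0.81 (SE 0.102). With replicates 1, 3 and 5 these differences were 1.27, 0.48 and -0.90, and with replicates 2, 4 and 6 they were 0.96, 0.37 and -0.72. The ratio of KLK15 over KLK3 was the only 1 of the 6 whose groups overlapped.

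**Figure D3:**
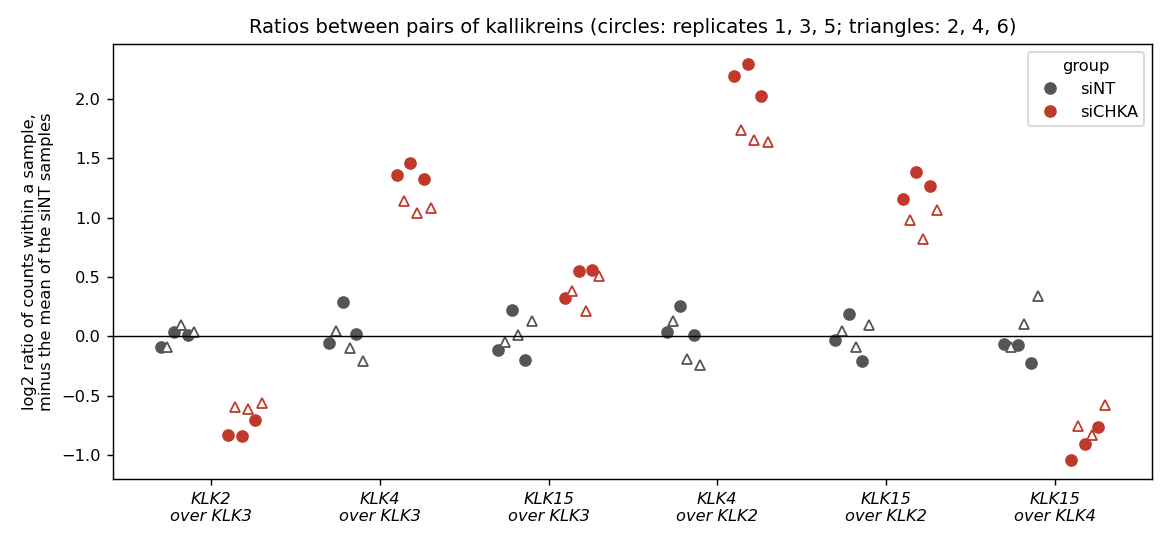
Log2 ratio of the counts of 2 kallikreins within each sample, minus the mean of the siNT samples (y axis), for the 6 pairs; siNT in grey and siCHKA in red, circles for replicates 1, 3 and 5 and triangles for replicates 2, 4 and 6. KLK4 over KLK2 stood farthest from the siNT mean, with siCHKA samples 1.92 higher on average.

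Per kilobase of the MANE Select transcript, the level in siNT was 2222 ± 232.5 CPM for KLK3, 182.0 ± 20.5 for KLK2, 59.9 ± 3.84 for KLK4 and 6.86 ± 1.02 for KLK15 (SD, n = 6), and no neighbours in this order overlapped. In siCHKA it was 1516 ± 355.7 for KLK3, 94.8 ± 12.6 for KLK4, 78.3 ± 24.0 for KLK2 and 6.22 ± 1.28 for KLK15. The ranges of KLK4 and KLK2 overlapped there, but within each siCHKA sample KLK4 was above KLK2. The 2 were close in replicate 6, at 101.6 against 98.9, and farther apart in replicate 1, at 84.4 against 56.0. The order of these 2 also rests on the KLK2 transcript used, which at 2829 bases is longer than those of KLK3 (1464), KLK4 (1416) and KLK15 (1357); in reads not scaled by length, KLK2 exceeded KLK4 in all 12 samples. KLK3 ranked between 3 and 25 among all genes by reads in a sample. The 4 members together took 0.205% to 0.341% of reads on genes in siCHKA and 0.312% to 0.435% in siNT.

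Shared sequence could blur these paralogs, because reads that aligned to more than 1 place were not counted. The MANE transcripts of KLK2 and KLK3 were 82.8% identical over 1429 aligned bases. Of the distinct 40-base windows (the length of a read) in their protein-coding transcripts, 2.05% in KLK2, 1.21% in KLK3, 0.23% in KLK4 and 0% in KLK15 also occurred in another gene. KLK2 and KLK3 shared 30 windows with each other. Between the 4 count files of a sample, the range was 1.03% to 3.08% of the mean for KLK3, up to 11.4% for KLK2, up to 15.9% for KLK4 and 22.6% to 54.5% for KLK15. An annotated transcript on the other strand (ENSG00000267968) overlaps the span of KLK15. The 40-base windows of the protein-coding KLK15 transcripts did not occur in it on either strand. The strand setting of the counting was not given in the sources used here. Reads of that transcript on other annotated parts of KLK15 could thus be counted on KLK15.

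The rest of the cluster was nearly silent in C4-2 cells. Of 11 other kallikrein genes and the pseudogene KLKP1, 8 were below the expression filter and 4 were tested. None of the 4 was called (edgeR, adjusted p below 0.05) or had an unadjusted p under 0.05. Among all genes tested 62.2% were called in either direction. KLK1, tissue kallikrein, was at 0.725 to 1.5 CPM in siCHKA and 0.915 to 1.49 CPM in siNT (log2 fold change -0.18, SE 0.21, edgeR adjusted p = 0.481). Its 10 to 33 reads per sample could not show a small change. KLK9 and KLK11 had no reads in any of the 12 samples.

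The tested genes around the cluster moved in both directions, with more higher than lower. Of the 94 annotated genes within 500 kb of it that are not kallikreins, 50 had no identifier in the files, 25 were below the filter and 19 were tested. Of these 2 were lower and 10 higher, with a median log2 fold change of 0.30 (all genes 0.035). Among all genes tested 30.1% were called lower and 32.1% higher. The neighbour counts were 2 and 9 with siCHKA replicates 1, 3 and 5, and 2 and 11 with replicates 2, 4 and 6. They were also 2 and 11 with upper quartile normalization. CLEC11A, a secreted growth factor of blood and bone cells, rose from 5.82 to 8.32 CPM in siNT to 23.7 to 29.4 CPM in siCHKA (log2 fold change 1.96, SE 0.0897, edgeR adjusted p = 7.5e-12). CLDND2 rose by 2.26 (SE 0.175) from a mean of 0.643 CPM in siNT, and JOSD2, a deubiquitinase, by 0.63 (SE 0.0633). SYT3, a synaptotagmin, rose by 2.11 (SE 0.271) from a mean of 0.224 CPM, with 21 reads over all siNT samples together. That level is near the floor, so the size of its rise is uncertain. POLD1, the catalytic subunit of DNA polymerase delta, fell by 1.01 (SE 0.0553). C19orf48P, on the side of KLK1, fell by 0.48 (SE 0.0783, edgeR adjusted p = 4.27e-05). Like the members it was lower in siCHKA replicates 1, 3 and 5 (275.4, 293.9 and 294.0 CPM) than in replicates 2, 4 and 6 (376.7, 369.2 and 365.4 CPM). The same order without overlap held for 22.9% of all genes tested, so it is not read as a link to the members.

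**Figure D4:**
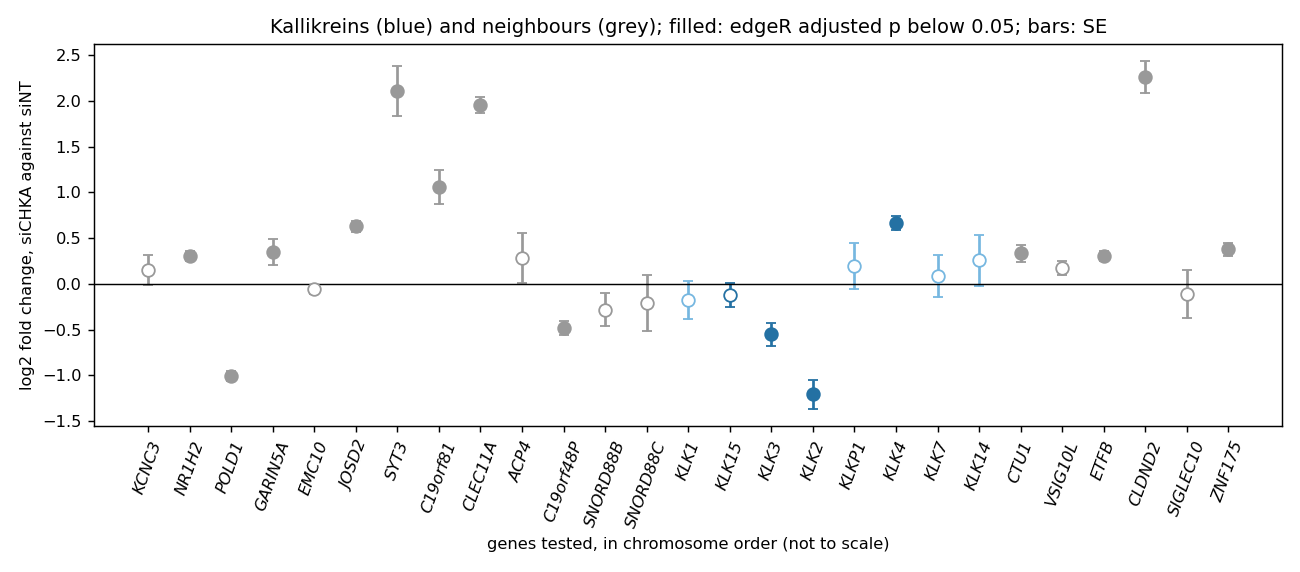
Log2 fold change, siCHKA against siNT (y axis, bars SE), of every tested kallikrein and every tested gene within 500 kb, in chromosome order and not to scale; members are dark blue, other kallikreins light blue, neighbours grey, and filled symbols have an edgeR adjusted p below 0.05. KLK3 (-0.55) and KLK2 (-1.21) lay next to each other below 0, and KLK4 (0.66) above it.

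Of 12 listed kallikrein inhibitors, 3 passed the filter and all 3 were lower (median -0.20). Over all genes tested 30.1% were called lower and 32.1% higher (median 0.035). SPINT1, a membrane-bound inhibitor of serine proteases, fell by 0.56 (SE 0.0488), SERPINB6 by 0.20 (SE 0.0578) and SPINT2 by 0.14 (SE 0.052). With upper quartile normalization SPINT2 was at 0.01 and SERPINB6 at -0.06, neither called. Nor were all 3 called in either set: SPINT2 was at -0.11 with siCHKA replicates 1, 3 and 5 (edgeR adjusted p = 0.177), and SERPINB6 at -0.13 with replicates 2, 4 and 6 (adjusted p = 0.07). The secreted inhibitors known to bind PSA in blood, SERPINA3 and A2M, were below the filter.

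Of 13 listed substrates and receptors, 6 were tested, 4 lower and 2 higher (median -0.71). The shares over all genes tested were 30.1% lower and 32.1% higher (median 0.035). FN1, fibronectin, fell by 1.52 (SE 0.0787), IGFBP3, which binds insulin-like growth factors, by 0.95 (SE 0.112), while TGFB2 fell by 2.01 (SE 0.305) from a mean of 1.23 CPM. The 2 protease-activated receptors moved apart: F2RL1 fell by 0.47 (SE 0.0779) and F2R rose by 0.36 (SE 0.0646). ACP3, prostatic acid phosphatase, rose by 0.50 (SE 0.151), but its log2 fold change was 0.13 with siCHKA replicates 1, 3 and 5 (adjusted p = 0.404) and 0.76 with replicates 2, 4 and 6. The semenogelins SEMG1 and SEMG2, the main substrates of PSA in semen, were below the filter.

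Of 26 androgen-induced genes outside the kallikreins, 25 were tested, 14 lower, 3 higher and 8 not called (median -0.24), or 8 lower and 6 higher with upper quartile normalization. There were 13 lower and 3 higher with siCHKA replicates 1, 3 and 5, and 13 lower and 4 higher with replicates 2, 4 and 6. Among all 14501 genes tested 30.1% were lower and 32.1% higher (median 0.035). With upper quartile normalization the counts over all genes were 3052 lower and 6609 higher. The condensin subunit NCAPD3 fell by 1.92 (SE 0.0582), the centromere protein CENPN by 1.13 (SE 0.057) and the elongation factor ELL2 by 0.75 (SE 0.0482). The transcription factor MAF rose by 0.93 (SE 0.141), SPDEF by 0.19 (SE 0.0511) and APPBP2 by 0.15 (SE 0.0643). With siCHKA replicates 2, 4 and 6 alone, APPBP2 was at 0.03 and not called (edgeR adjusted p = 0.668).

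Marker genes of prostate cell types were read beside the members. Their calls stand beside 30.1% lower and 32.1% higher among all genes tested (median 0.035). Of 8 luminal markers tested, 3 were lower and 4 higher (median 0.03), or 1 lower and 4 higher with upper quartile normalization and 2 lower and 3 or 4 higher with either siCHKA set, and the summed level was 1810.0 to 1960.0 CPM in siCHKA and 1780.0 to 2030.0 CPM in siNT. Both neuroendocrine markers that were tested were higher, ENO2 by 1.11 (SE 0.169) and SYP by 0.74 (SE 0.214), though SYP was not called with siCHKA replicates 1, 3 and 5 alone (0.52, edgeR adjusted p = 0.0859), with a summed level of the 6 listed of 12.7 to 23.6 CPM in siCHKA and 6.74 to 13.2 CPM in siNT. INSM1 was at 0 in all samples, and CHGA and CHGB were below the filter. Of 5 basal markers only KRT14 was tested, and it was higher, by 0.58 (SE 0.147), with a summed level of 1.81 to 2.27 CPM in siCHKA and 1.2 to 1.65 CPM in siNT. Of 11 stromal, endothelial and immune markers 3 were tested: COL1A1 was higher, PDGFRB and VWF were lower, CD3E was at 0 in all samples, and the sum was 26.3 to 33.6 CPM in siCHKA and 19.3 to 25.8 CPM in siNT. The part of any of these in the kallikrein values was not tested.

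The genes with the most similar profiles were found by the root mean square difference of log2 CPM over the 12 samples, after centring each gene on its own mean, among 9628 genes of at least 10 CPM on average (9629 for KLK15). For KLK2 they were TRPM8 (0.113), SYT4 (0.162) and PMAIP1 (0.165). For KLK3 they were WSB1 (0.102), ZFC3H1 (0.102) and HERPUD1 (0.108). For KLK4 they were CLYBL (0.0682), IL17RC (0.0705) and F12 (0.0744), and for KLK15 ATP2C2 (0.133), ENTPD2 (0.133) and SLC39A13 (0.135). None of these 12 genes lies on chromosome 19, but the share of the compared genes on it was not counted. KLK3 was the 412th nearest gene to KLK2, and KLK2 the 3480th nearest to KLK3, both at 0.356. The distance from KLK4 was 0.635 for KLK3 and 0.986 for KLK2. From KLK15 it was 0.251 for KLK3, 0.434 for KLK4 and 0.579 for KLK2.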

How the data were processed

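RNA-seq of 6 siCHKA and 6 siNT samples was analysed. The authors aligned single-end 40-base reads to GRCh37 with TopHat2 2.0.4, counted reads per Ensembl gene with HTSeq 0.5.3p9 (versions from the submitters' processing notes), and deposited raw counts in 4 files per sample. The 4 files were summed. Of 54127 identifiers, 44824 (82.8%) were named through GENCODE release 44.

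Counts were analysed in R 4.3.3 with edgeR 4.0.16 (filterByExpr, TMM, quasi-likelihood test between the groups with no covariate, Benjamini-Hochberg adjusted p below 0.05 called); DESeq2 1.42.0, other normalizations and filters, and subsets of samples or count files were alternatives. Each SE was the log2 fold change over the root of F. log2 CPM used a prior count of 2. Single values and ratios were compared by exact permutation (scipy, all samples). The same fit was also run on data simulated from the main fit, and the outcome of that run is not given here. At these depths 3 counts were 0.124 to 0.281 CPM; such floors cover counting error only.

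Members and gene lists were chosen with earlier results of these data known. Named were all members, other kallikreins of at least 1 CPM in either group, at most 4 called genes per list and direction by smallest p, the 3 nearest profiles per member, and CHKA; KLK9, KLK11, the inhibitors and substrates below the filter, and the cell type markers were named after their values were seen. Protein sequences were not used here, and some listed genes that the rule would name are not reported here.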

Additional observations from a re-analysis of the deposited data

How the results depend on the processing

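KLK2, KLK3 and KLK4 kept their direction and call under every alternative: RLE and upper quartile normalization, members left out of the scaling, DESeq2, no count filter, a stricter filter (10 counts in every sample), the replicate block, either set of replicates in both groups or in siCHKA only, each replicate left out, and each count file alone. Leaving out 1 replicate gave -1.30 to -1.13 for KLK2, -0.62 to -0.49 for KLK3, 0.61 to 0.71 for KLK4 and -0.20 to -0.05 for KLK15. KLK15 turned to 0.023 with upper quartile normalization, to 0.10 with siCHKA replicates 2, 4 and 6 and to 0.13 in count file 2, none called, and was called at -0.41 with siCHKA replicates 1, 3 and 5; the cause was not tested. The difference in log2 ratio of KLK15 over KLK3 was 0.26 in count file 3 (exact permutation p = 0.171), and the cause was not tested. The other 5 ratios kept their direction and call wherever the design could reach p below 0.05; 3 samples against 3 could not.

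Same-numbered samples did not deviate together (correlations of -0.396 to 0.321), so the numbers were not taken to pair them. With the replicate block, the log2 fold change was -1.27 for KLK2, -0.58 for KLK3, 0.66 for KLK4 and -0.15 for KLK15 (edgeR adjusted p = 0.202), with 4273 genes lower and 4494 higher; no call of a member changed. List counts with each siCHKA set or with upper quartile normalization were added after seeing the data, and 8 of 60 moved by more than 1.5 times. KLK1 had 10 to 33 reads per sample and KLK15 90 to 225, and the SE of KLK15 (0.13) was close to that of KLK3 (0.126).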

Other observations

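C19orf48P, POLD1 and CLEC11A lie within 500 kb of the kallikreins and moved in different directions, and they also differed in how the siCHKA sets compared. The log2 fold change of CLEC11A was 1.90 with siCHKA replicates 1, 3 and 5 and 2.00 with replicates 2, 4 and 6, and that of POLD1 was -0.99 and -1.04. That of C19orf48P was -0.68 and -0.32, a gap in the direction seen for KLK3 and KLK2. Of all genes tested, 22.9% were higher without overlap in siCHKA replicates 2, 4 and 6 than in replicates 1, 3 and 5. The sets were defined from the data and these gaps were not tested.

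Within the siNT group, KLK3, KLK2 and KLK15 were each highest in replicate 6 (3811, 616.9 and 11.9 CPM), which was also the shallowest sample with 10685184 reads on genes. KLK4 was not, at 86.2 CPM there against 91.8 CPM in replicate 2.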
